A study of Mus musculus with 65 samples.

Results

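Meis1, Mecom, Hlf and Erg encode transcription factors of blood stem cells, and Cd34, Flt3, Ly6a and Procr encode surface proteins by which stem and progenitor cells are recognised. The peaks of the DNA-binding proteins CTCF and TAL1 around these 8 genes, of 55450 genes in the mouse annotation (GENCODE vM21), were collected from 53 ChIP-seq libraries. Every peak within a gene body or 100 kb on either side was taken, and peaks of the same protein that overlapped by at least 1 bp were merged into a site. This gave 121 CTCF sites from 978 peaks, of 95140 CTCF sites and 482386 peaks in the genome, and 20 TAL1 sites from 70 peaks, of 13153 TAL1 sites and 62123 peaks. The genes lie on mouse assembly mm10 at chr11:18879817-19018985 (Meis1, minus strand), chr3:29951296-30548008 (Mecom, minus), chr11:90336536-90390895 (Hlf, minus), chr16:95359169-95586593 (Erg, minus), chr1:194938819-194961279 (Cd34, plus), chr5:147330741-147400489 (Flt3, minus), chr15:74994877-74998031 (Ly6a, minus) and chr2:155751117-155755471 (Procr, plus).

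The study measured how the length of sheared chromatin bore on ChIP-seq quality, and each library carried a subjective grade of Pass, Low pass or Fail. CTCF was profiled in primary bone marrow cells of young adult male C57BL/6 mice and in G1E-ER4+E2 cells, an erythroid progenitor line derived from embryonic stem cells, lacking Gata1 and carrying an estrogen-responsive GATA1, induced with β-estradiol for 24 hours. TAL1 was profiled in G1E-ER4+E2 cells only. The primary CTCF libraries were LSK (lineage-negative, cKit+, Sca1+; 2 Pass), CMP (Sca1-, cKit+, CD34+, CD16/32-; 1 Low pass), GMP (Sca1-, cKit+, CD34+, CD16/32+; 1 Low pass), MEP (Sca1-, cKit+, CD34-, CD16/32-; 1 Pass), CFUE (Ter119+, CD44+, high forward scatter; 1 Pass), ERY (Ter119+, CD44+, low forward scatter; 2 Pass), CFUMk (Sca1-, CD41+, CD61+, cKit+; 1 Pass) and iMK (Sca1-, CD41+, CD61+, cKit-; 2 Pass). The G1E-ER4+E2 libraries comprised 7 Fail, 2 Low pass and 14 Pass for CTCF, and 5 Fail, 4 Low pass and 10 Pass for TAL1. Their average chromatin length, where given, was 168 to 329 bp (Fail), 178 and 195 bp (Low pass) and 199 to 302 bp (Pass) for CTCF. For TAL1 it was 166 to 297, 176 to 289 and 190 to 298 bp. By the paper, the number of cells was also varied, and fixation differed among older libraries. Libraries of 1 grade therefore differed in how they were prepared. 1 of the TAL1 Pass libraries (replicate 10) has TAL1 in its title but CTCF in its antibody label, and was counted by its title. The products of Ly6a (Sca1) and Cd34 were themselves used to sort the primary cells, and no RNA was measured in these libraries, so the sorted identities could not be checked against marker expression.

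CTCF binds a long, oriented DNA motif and halts the cohesin complex as it extrudes chromatin loops, so that its sites mark domain borders and loop anchors. Many of its sites are shared between cell types. TAL1 belongs to the basic helix-loop-helix proteins and is required to form blood stem cells and later red cells and megakaryocytes. It contacts the E-box CAGNTG and, in erythroid cells, often sits beside GATA1 at AGATAA. Meis1 is a homeodomain partner of HOX proteins, Mecom encodes the zinc finger protein EVI1, Hlf is a PAR bZIP factor, and Erg is an ETS factor. Cd34 is a sialomucin, Flt3 a receptor tyrosine kinase of early progenitors, Ly6a a GPI-anchored protein known as Sca1, and Procr the endothelial protein C receptor.

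Peak lists differed in length between libraries, which bounds how many sites each could call. The CTCF lists held 18945 and 28476 peaks in LSK, 26316 in CMP, 34416 in GMP, 15002 in MEP, 11990 in CFUE, 8284 and 6629 in ERY, 36481 in CFUMk, and 19612 and 21494 in iMK. In G1E-ER4+E2 cells the CTCF lists held 193 to 17343 peaks for Fail (median 3879), 6542 and 7078 for Low pass, and 10655 to 21986 for Pass (median 13163.5). The TAL1 lists held 204 to 606 peaks for Fail, 1212 to 2751 for Low pass, and 2670 to 9763 for Pass (median 4205). Read depth was not given in the lists, so strength was ranked within a library as the percentile of the −log10 p of a peak among all peaks of that library. No pair of libraries of a group shared more than 0.0813% of peaks with identical coordinates, and the labels do not say which libraries came from separate cultures or animals, so p-values cover the spread between libraries only.

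The sequences that the results turn on are shown first. A CTCF matrix 19 bases wide was built from the strongest LSK peaks outside the gene windows, and each sequence below carries its best match in capitals with 20 bases on either side, 5′ to 3′ on the strand of the match (reference GRCm38/mm10). The first set holds 4 of the 5 CTCF sites that were called in every Pass library of primary and G1E-ER4+E2 cells; the other, 97.4 kb downstream of Procr, lies in an exon of Uqcc1 and is not printed.
Cd34 CTCF chr1:194879708-194879766, plus strand: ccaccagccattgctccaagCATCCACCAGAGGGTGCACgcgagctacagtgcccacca
Procr CTCF chr2:155692237-155692295, minus strand: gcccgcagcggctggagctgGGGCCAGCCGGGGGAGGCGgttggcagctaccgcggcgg
Procr CTCF chr2:155696448-155696506, plus strand: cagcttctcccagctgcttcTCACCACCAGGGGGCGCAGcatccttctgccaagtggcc
Procr CTCF chr2:155811882-155811940, minus strand: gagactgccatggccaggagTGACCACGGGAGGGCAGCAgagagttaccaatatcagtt

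A second set holds the CTCF sites that both LSK libraries called and no ERY or iMK library did; the Hlf site of this kind had no match to the matrix.
Mecom CTCF chr3:30015409-30015467, plus strand: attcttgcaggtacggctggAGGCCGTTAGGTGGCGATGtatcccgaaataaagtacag
Mecom CTCF chr3:30508474-30508532, minus strand: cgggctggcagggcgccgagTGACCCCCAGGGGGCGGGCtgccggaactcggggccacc
Mecom CTCF chr3:30515208-30515266, minus strand: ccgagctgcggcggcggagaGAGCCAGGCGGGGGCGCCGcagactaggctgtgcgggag
Ly6a CTCF chr15:74909578-74909636, plus strand: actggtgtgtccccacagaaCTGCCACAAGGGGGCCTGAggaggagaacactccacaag

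The next set comes from the Ly6a region, where primary and G1E-ER4+E2 cells differed. It holds 4 of the 7 sites that passed the test below and the site 21.8 kb upstream, at chr15:75019727-75019785, that did not. The other 3 that passed, 5.11 kb downstream and 23.4 and 64.2 kb upstream, had no match to the matrix. The last 2 sequences of the set are 59-base stretches that share 49 bases, 17 of them within the 19 of the motif.
Ly6a CTCF chr15:74896474-74896532, plus strand: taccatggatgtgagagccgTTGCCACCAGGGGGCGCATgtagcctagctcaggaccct
Ly6a CTCF chr15:74923628-74923686, plus strand: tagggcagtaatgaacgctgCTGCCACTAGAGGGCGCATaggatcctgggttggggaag
Ly6a CTCF chr15:74968633-74968691, minus strand: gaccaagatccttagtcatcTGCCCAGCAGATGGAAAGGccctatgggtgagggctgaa
Ly6a CTCF chr15:75019727-75019785, minus strand: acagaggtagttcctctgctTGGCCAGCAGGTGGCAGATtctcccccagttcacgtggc
Ly6a CTCF chr15:75060685-75060743, minus strand: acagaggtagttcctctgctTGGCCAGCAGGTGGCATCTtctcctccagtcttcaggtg

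The last set is the 5 TAL1 sites that were called in at least 5 of the 10 Pass libraries, each shown on the plus strand as the 100 bases of the site that hold the most matches to CAGNTG and AGATAA, which stand in capitals on either strand (CAGNTG also reads CANCTG, and AGATAA reads TTATCT, on the other strand).
Flt3 TAL1 chr5:147442039-147442138, plus strand: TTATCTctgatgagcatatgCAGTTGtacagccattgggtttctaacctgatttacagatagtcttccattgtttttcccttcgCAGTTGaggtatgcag
Flt3 TAL1 chr5:147445440-147445539, plus strand: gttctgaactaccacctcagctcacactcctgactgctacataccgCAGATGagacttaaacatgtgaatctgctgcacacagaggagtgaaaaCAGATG
Meis1 TAL1 chr11:18963321-18963420, plus strand: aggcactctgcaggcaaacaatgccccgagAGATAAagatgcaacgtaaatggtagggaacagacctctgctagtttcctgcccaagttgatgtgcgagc
Erg TAL1 chr16:95439314-95439413, plus strand: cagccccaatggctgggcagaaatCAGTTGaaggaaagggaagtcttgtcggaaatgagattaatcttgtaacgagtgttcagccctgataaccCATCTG
Mecom TAL1 chr3:30601348-30601447, plus strand: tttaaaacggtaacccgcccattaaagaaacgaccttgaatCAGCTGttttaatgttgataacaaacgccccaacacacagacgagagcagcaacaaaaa

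CTCF sites were present at each of the 8 genes, from 5 at Hlf and 12 at Meis1 to 15 at Ly6a and Procr, 16 at Cd34, 19 at Erg and Flt3 and 20 at Mecom. Of the 121 sites, 93 were called in a Pass library, 55 in at least 5 libraries and 44 in 1 library alone. Of the 95140 CTCF sites of the genome, 49407 were called in a Pass library and 24020 in at least 5 libraries. The genome's share of sites called in 1 library was not counted. CFUMk, the longest list, held 10 sites that no other library called, and GMP held 7. By the middle of the site, introns of coding transcripts held 49, exons 1 and untranslated regions 3, while 2 reached over the end of a coding transcript and 66 lay outside. Of the 55 sites called in at least 5 libraries, 48 (87.3%) matched the CTCF matrix, against 93.2% of the 24020 such sites of the genome. Windows of the same length 10 kb to the right matched in 15 of 55 (27.3%).

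**Figure D1:**
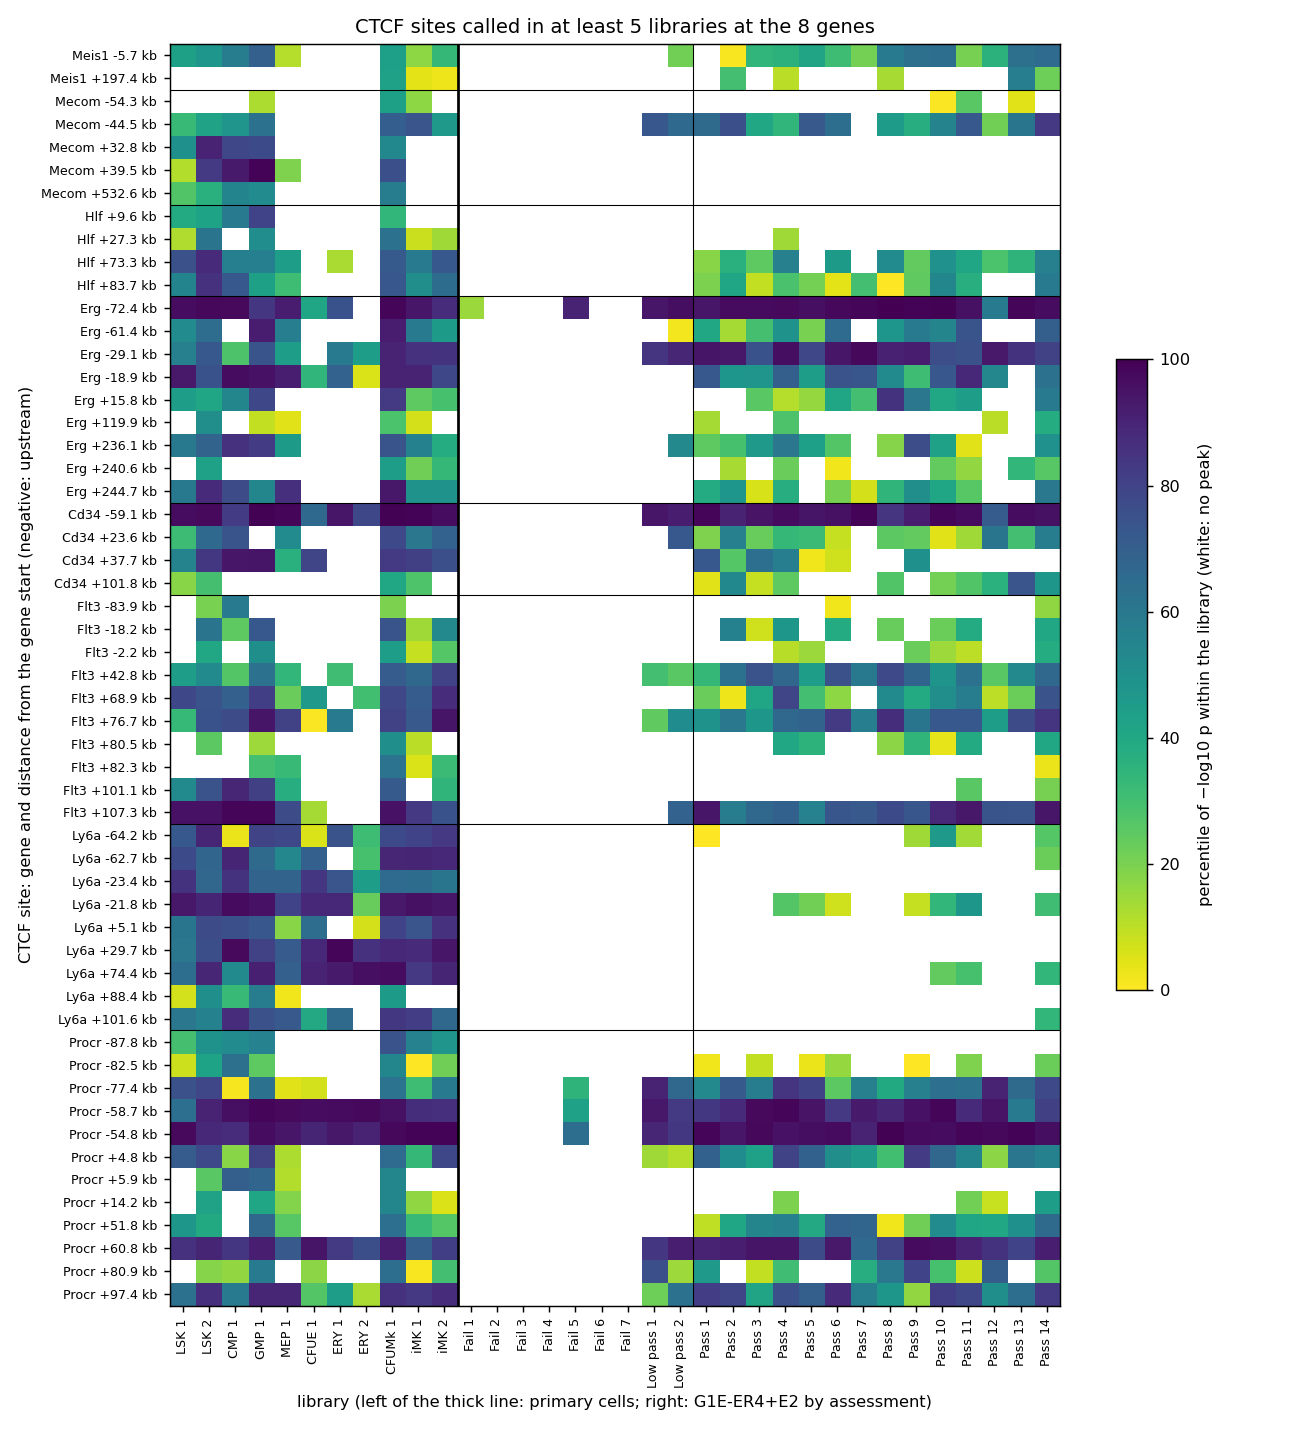
CTCF sites called in at least 5 libraries (rows, by gene and distance from the gene start in kb) against the 34 CTCF libraries (columns; primary cells left of the thick line, G1E-ER4+E2 cells by grade to its right). Colour gives the percentile of −log10 p within the library and white means no peak. 1 row at Cd34 and 4 at Procr are filled across all Pass libraries, the Mecom and Hlf sites near coding starts are filled in LSK, CMP, GMP and CFUMk, the Ly6a rows are filled mainly in primary cells, and the Fail columns are nearly empty.

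Both LSK libraries called 43 of the sites. In mature cells, 12 of these (27.9%) were called in all 4 libraries of ERY and iMK, against 24.7% of the 17697 LSK sites of the genome. At the other end, 5 (11.6%) were called in none, against 9.76% of the genome's LSK sites. Both shares lay near those of the genome. Both iMK libraries called 36 of the 43 (83.7%; genome 80.7%), and both ERY libraries called 12 (27.9%; genome 24.9%). No site of the 43 was called in both ERY libraries without being called in both iMK libraries. This was near the genome, where 4398 LSK sites were called in both ERY libraries and 4372 in all 4 mature libraries. Another 16 of the 43 were called in both iMK and in neither ERY, and the genome's share of such sites was not counted. The ERY lists were the shortest of the primary cells and the iMK lists were close to that of LSK replicate 1, and with each list cut to its strongest 6629 peaks, 10 sites were called in both LSK libraries, 5 of them in all 4 mature libraries and 1 in none. Leaving both ERY libraries out, an alternative chosen after the data were seen, gave 36 sites kept in both iMK libraries. Without LSK replicate 1, 15 of 62 LSK sites were called in no mature library. With 4 mature against 2 LSK libraries the smallest exact p is 0.0667, so no site was tested.

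The intermediate populations differed in how many of the LSK sites they called. CFUMk called all 43, GMP 41, CMP 39, MEP 34 and CFUE 20. This is also the order of their list lengths, and the part of list length was not tested. Of the 43, 28 were called in at least 7 of the 14 Pass libraries of G1E-ER4+E2 cells and 9 in none. The genome's share was not counted for these populations or for the line, so these counts describe the 43 sites only. No site called in all 4 mature libraries was missing from both LSK libraries at the 8 genes, and in the genome 0.354% of such sites were. A further 19 sites were called in 1 LSK library, and 5 were called in a mature library and in neither LSK library. Of these 5, the sites at Meis1 chr11:18821113-18822013 and Flt3 chr5:147317796-147318632 were called in both iMK libraries. Their iMK percentiles were low, at 4.08 and 2.35 for the Meis1 site and 5.63 and 32.0 for the Flt3 site.

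**Figure D2:**
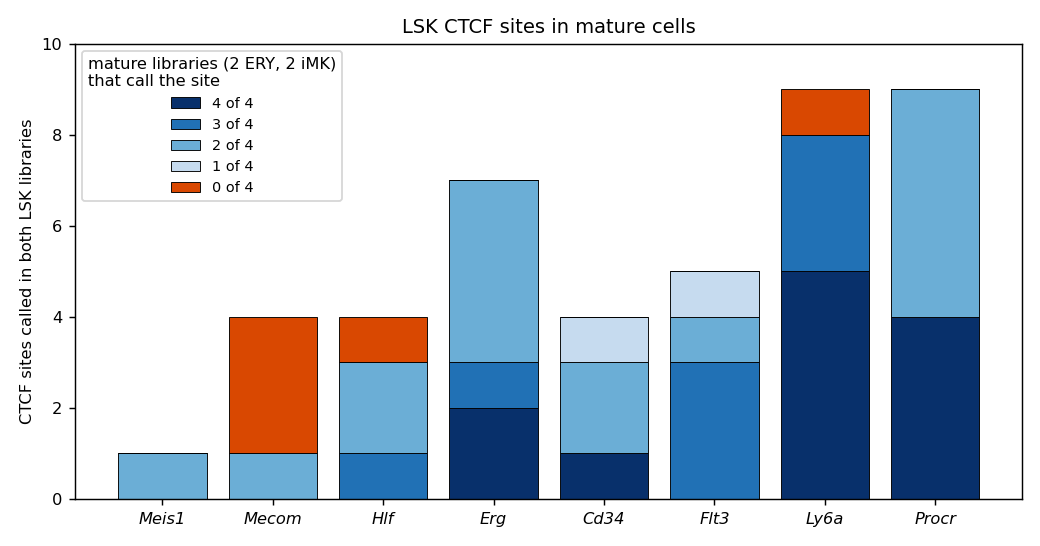
Number of CTCF sites called in both LSK libraries at each gene (bar height), divided by how many of the 4 mature libraries (2 ERY, 2 iMK) called the site. Ly6a has 5 and Procr 4 of the 12 sites kept in all 4, and Mecom has 3 of the 5 sites called in none.

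Mecom held 3 of the 5 LSK sites that no mature library called, out of 4 LSK sites at the gene. All 3 lay near starts of coding transcripts of Mecom. The site at chr3:30507882-30509166, in an intron 0.99 kb downstream of the nearest coding start, stood at percentiles 11.4 and 82.9 in LSK, 92.9 in CMP, 99.2 in GMP, 19.3 in MEP and 75.8 in CFUMk. Its fold enrichment reached 104 in GMP, against 5.87 and 30.2 in LSK. The site was thus among the strongest in GMP and spread widely between the LSK replicates.

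The second Mecom site, at chr3:30514738-30515661 and 5.38 kb upstream of a coding start, stood at percentiles 49.98 and 89.97 in LSK, 78.7 in CMP, 77.5 in GMP and 53.3 in CFUMk. The third, at chr3:30014959-30015877 and 1.91 kb upstream of an internal coding start, stood at percentiles 27.1 and 36.5 in LSK, 54.7 in CMP, 51.6 in GMP and 57.7 in CFUMk. Neither was called in MEP. None of the 3 was called in CFUE, ERY, iMK or any G1E-ER4+E2 library. The fourth LSK site, at chr3:30591934-30593045 and 44.5 kb upstream of the outermost Mecom start, was called in both iMK libraries, neither ERY library and 13 of 14 G1E-ER4+E2 Pass libraries. With a −log10 p of at least 10 required, the site 5.38 kb upstream of a coding start was the 1 Mecom site left among those that both LSK and no mature library called. The fourth LSK site had the highest median percentile at Mecom, over the Pass libraries that called it (58.2).

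Hlf kept none of its 4 LSK sites in all 4 mature libraries and 1 of them was called in none. That site, at chr11:90380910-90381697 in an intron 9.59 kb downstream of the Hlf start, stood at percentiles 38.7 and 42.1 in LSK, 58.7 in CMP, 79.99 in GMP and 33.9 in CFUMk. It was the CTCF site nearest to the Hlf start and was not called in MEP, CFUE, ERY, iMK or G1E-ER4+E2 cells. Downstream of the gene, the sites at chr11:90317175-90318098 and chr11:90306609-90307784 were called in both LSK and both iMK libraries and in 12 of 14 G1E-ER4+E2 Pass libraries each. The first of these had the highest median percentile at Hlf (45.4).

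The fifth LSK site absent from mature cells lay 88.4 kb downstream of the Ly6a start, at chr15:74909192-74910015. Its percentiles were 6.75 and 50.2 in LSK, 32.6 in CMP, 58.2 in GMP, 2.15 in MEP and 45.4 in CFUMk, so in 1 LSK library and in MEP it was among the weakest peaks. The mean of the 2 LSK percentiles was taken at each LSK site of the 8 genes. The median of these means was 79.0 (64.5 to 97.0) over the 12 sites kept in all mature libraries. It was 60.8 (23.6 to 97.1) over the 26 kept in some and 40.4 (28.5 to 70.0) over the 5 kept in none. In the genome the medians were 81.2 for sites kept in all and 32.4 for sites kept in none. The motif was matched in 10 of the 12, 24 of the 26 and 4 of the 5.

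Procr, with 9 LSK sites, had 4 that were kept in all 4 mature libraries, and all 4 were also called in every Pass library of both sources. These lay 58.7 and 54.8 kb upstream (chr2:155691899-155692968, over the first exon of Trpc4ap, and chr2:155695694-155697025) and 60.8 and 97.4 kb downstream of the Procr start (chr2:155811400-155812483 and chr2:155847951-155849018). The site 54.8 kb upstream had the highest median percentile at Procr (97.1), with percentiles from 88.6 to 99.2 (median 93.8) in the 9 primary Pass libraries and from 90.4 to 99.3 (median 97.1) in the 14 G1E-ER4+E2 Pass libraries. The ranges of the 2 sources overlapped. The site 97.4 kb downstream was weaker in places, with percentiles from 12.6 to 89.3 in primary cells and 16.4 to 88.0 in G1E-ER4+E2 cells.

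Nearest to the Procr start, the site at chr2:155755470-155756421 (4.83 kb downstream, at the end of the gene) was called in 6 of 9 primary and 14 of 14 G1E-ER4+E2 Pass libraries, in both LSK and both iMK libraries and in neither ERY library. The stretch around its motif resembled those at the sites 77.4 kb upstream and 51.8 kb downstream. The 59-base stretches of the 3 sites shared 40 to 43 bases in pairs, and the motifs of the outer 2 were identical over 19 of 19 bases. Of the 48 sites with a motif at the 8 genes that were called in at least 5 libraries, 8 (16.7%) had it in repeat-masked sequence, against 16.3% in the genome. Many of these were at Procr. Among sites called in at least 7 of 14 Pass libraries of the line, 5 of 9 motifs at Procr were masked, against 7 of 31 over all 8 genes.

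Cd34 kept 1 of its 4 LSK sites in all 4 mature libraries. That site, at chr1:194879036-194880315 and 59.1 kb upstream of the gene, was called in every Pass library and was the strongest at Cd34, with percentiles from 65.9 to 99.3 (median 96.7) in primary cells and 70.9 to 99.0 (median 95.5) in G1E-ER4+E2 cells. Nearest to the Cd34 start, at 14.3 kb downstream, the site at chr1:194952735-194953478 was called in GMP and CFUMk only. The other 3 LSK sites, 23.6, 37.7 and 101.8 kb downstream, were called in no ERY library.

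Erg kept 2 of its 7 LSK sites in all 4 mature libraries, and both lay upstream of the gene, at 18.9 kb (chr16:95605015-95605996) and 29.1 kb (chr16:95615198-95616276). The nearer was called in 9 of 9 primary and 13 of 14 G1E-ER4+E2 Pass libraries, and the farther in 8 of 9 and 14 of 14. Another upstream site, 72.4 kb away at chr16:95658410-95659588, had the highest median percentile at Erg (96.7) and was called in 8 of 9 primary and 14 of 14 G1E-ER4+E2 Pass libraries, missing only from ERY replicate 2. By contrast, the site nearest to the Erg start, at chr16:95585473-95586168 and 0.77 kb downstream, was called in 1 of 2 LSK libraries, CMP, GMP and CFUMk, and in no G1E-ER4+E2 library.

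Flt3 had 5 LSK sites, of which 3 were called in 3 of the 4 mature libraries and none in all 4. The site with the highest median percentile (74.8), at chr5:147292673-147293750 and 107 kb downstream of the Flt3 start, was called in 7 of 9 primary and 14 of 14 G1E-ER4+E2 Pass libraries and in neither ERY library. The site nearest to the start, 2.22 kb upstream at chr5:147402258-147403156, was called in 4 of 9 and 6 of 14. Meis1 had a single LSK site, at chr11:19024202-19025081 and 5.66 kb upstream of its start, which was nearest to the start and had the highest median percentile there (35.7). It was called in both iMK and neither ERY library, in 6 of 9 primary and 13 of 14 G1E-ER4+E2 Pass libraries.

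Primary and G1E-ER4+E2 cells were compared over the 9 and 14 Pass libraries by a Fisher's exact test per site (two-sided), with Benjamini-Hochberg adjustment over the 21564 sites of the genome called in at least 5 of these libraries. Of 48 sites tested at the 8 genes, 8 (16.7%) were called more often in primary cells, against 10.9% of the genome's sites, and 0 were called less often, against 1.43%. At an unadjusted p below 0.05 the counts were 10 more often and 2 less often. The 8 sites were concentrated at 1 gene: 7 of the 8 tested at Ly6a passed, and 1 of the 40 tested at the other 7 genes.

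At Ly6a, the sites 29.7 kb downstream (chr15:74967688-74968884) and 23.4 kb upstream (chr15:75020813-75021998) were called in 9 of 9 primary and 0 of 14 G1E-ER4+E2 Pass libraries (Fisher's exact test, adjusted p = 0.000261 each). The site 5.11 kb downstream of the start (chr15:74992412-74993424), nearest to the Ly6a start and just past the end of the gene, was called in 8 of 9 and 0 of 14 (Fisher's exact test, adjusted p = 0.00156). The sites 102 kb downstream (chr15:74896000-74896937) and 62.7 kb upstream (chr15:75060320-75061206) were called in 8 of 9 and 1 of 14 each (Fisher's exact test, adjusted p = 0.00607). These sites thus lay on both sides of the gene and were close to absent from the line. Each reached the minimum of 5 calls through its primary cell calls, the group in which it was called more often. With sites of any number of calls tested, each of them still passed (Fisher's exact test, adjusted p from 0.000599 to 0.0139).

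Calls were more mixed at the remaining Ly6a sites. The site 74.4 kb downstream (chr15:74923065-74924147) was called in 9 of 9 primary and 3 of 14 G1E-ER4+E2 Pass libraries (Fisher's exact test, adjusted p = 0.0124), and the site 64.2 kb upstream (chr15:75061730-75062728) in 9 of 9 and 5 of 14 (Fisher's exact test, adjusted p = 0.0341). The eighth, 21.8 kb upstream (chr15:75019257-75020324), was called in 9 of 9 and 7 of 14 and did not pass (Fisher's exact test, adjusted p = 0.116), but it passed with the strongest 6629 peaks of each library (adjusted p = 8.64e-05), with a −log10 p of at least 10 (0.0165) and with CMP and GMP added (0.0449). In the line, its percentiles were low where it was called, from 7.16 to 47.0 (median 26.8), against 23.1 to 95.4 (median 89.7) in primary cells.

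The site 29.7 kb downstream had the highest median percentile at Ly6a (87.9). Its percentiles were 60.5 and 76.1 in LSK, 97.4 in CMP, 80.6 in GMP, 71.2 in MEP, 88.9 in CFUE, 98.7 and 85.6 in ERY, 88.8 in CFUMk, and 87.9 and 93.8 in iMK. It was therefore held from LSK to both mature types, unlike the site 88.4 kb downstream. In all, 5 of the 9 LSK sites at Ly6a were called in all 4 mature libraries. The Ly6 genes form a cluster of related copies, so reads there can match more than 1 place, and how such reads were treated was not given in the sources used here. The primary cells and the line also differed in sorting and in the time of fixation, which cannot be told apart from the cell type.

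**Figure D3:**
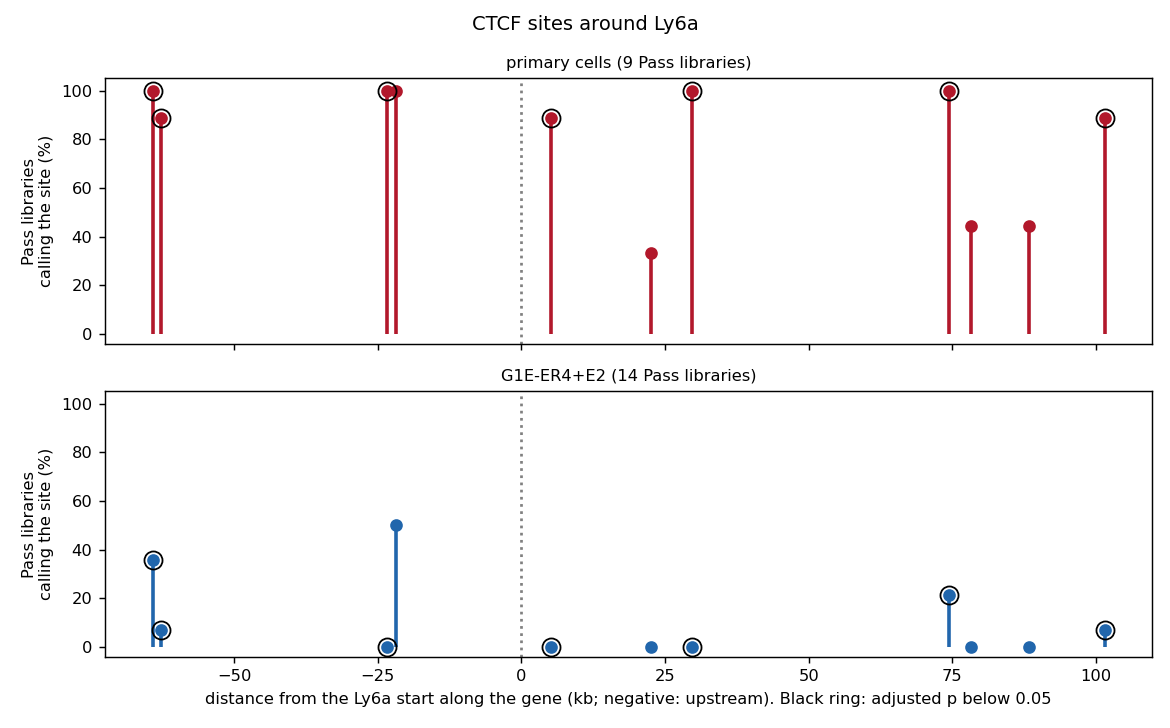
Share of Pass libraries (%) calling each CTCF site around Ly6a, in 9 primary cell libraries (upper panel) and 14 G1E-ER4+E2 libraries (lower panel), by distance from the Ly6a start along the gene in kb. Black rings mark the 7 sites with an adjusted p below 0.05, all called in 8 or 9 of 9 primary libraries and in 0 to 5 of 14 G1E-ER4+E2 libraries.

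The single site outside Ly6a that passed was 87.8 kb upstream of Procr, at chr2:155662697-155663874 in an intron of Trpc4ap. It was called in 5 of 9 primary libraries (both LSK, both iMK and CFUMk) and 0 of 14 G1E-ER4+E2 Pass libraries (Fisher's exact test, adjusted p = 0.0341), so it met the minimum of 5 calls through primary cells alone. With sites of any number of calls tested, 6 sites passed, all at Ly6a, and this site did not (Fisher's exact test, adjusted p = 0.0781). Without CFUMk, the longest list, 6 sites passed, all at Ly6a, since this site then had too few calls to be tested and the Ly6a site 64.2 kb upstream had an adjusted p of 0.0636 (Fisher's exact test). With the Low pass CMP and GMP libraries added, 15 sites passed, among them the 3 Mecom sites and the Hlf site that were absent from mature cells. No G1E-ER4+E2 library called these Mecom and Hlf sites, so they too met the minimum of 5 calls through primary cells alone.

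In G1E-ER4+E2 cells, Fail libraries called 0 to 8 CTCF sites at the 8 genes (median 4), the Low pass libraries 13 and 18, and Pass libraries 19 to 47 (median 29.5). Per 1000 peaks in the list, the count was 0 to 4.71 for Fail (median 0.516), 1.84 and 2.75 for Low pass, and 1.68 to 2.46 for Pass (median 2.17). On this scale the Low pass libraries lay about the Pass range, and Fail replicate 5, with 850 peaks, lay above it. Among primary cells the count was 43 and 62 in LSK, 50 in CMP, 67 in GMP, 38 in MEP, 26 in CFUE, 17 and 15 in ERY, 84 in CFUMk, and 49 and 47 in iMK. Per 1000 peaks the LSK, ERY and iMK libraries lay between 2.05 and 2.50.

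**Figure D4:**
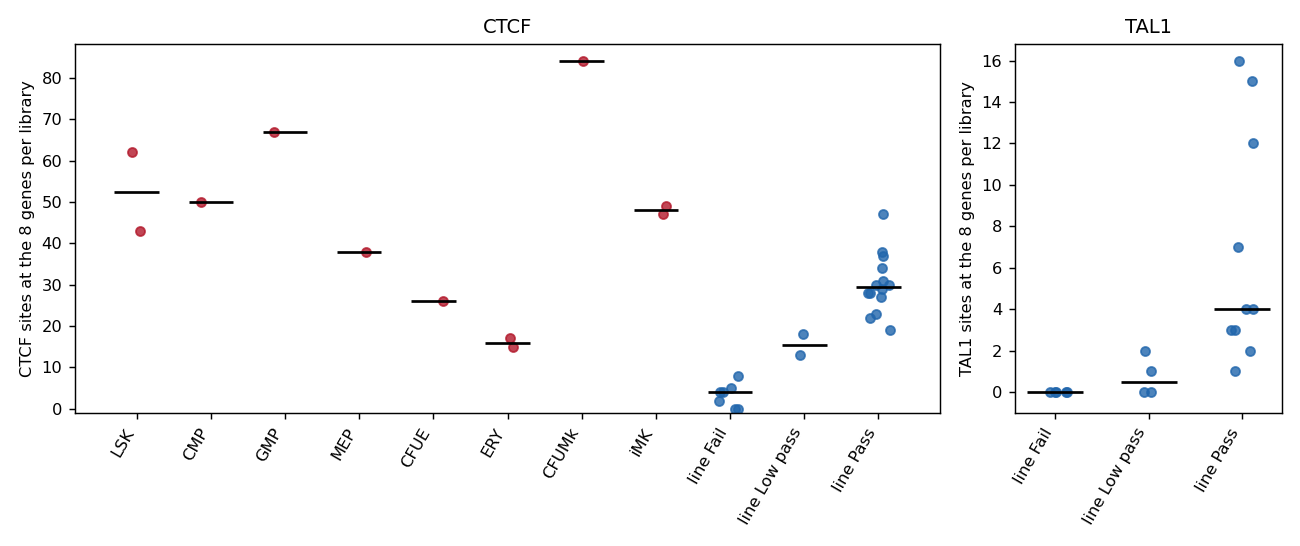
Number of CTCF sites (left) and TAL1 sites (right) at the 8 genes that each library called. Points are libraries, lines are group medians, and "line" means G1E-ER4+E2 cells. Among primary cells the CTCF count runs from 15 in an ERY library to 84 in CFUMk, and Fail libraries of the line call 0 to 8 CTCF and 0 TAL1 sites.

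Of 35 CTCF sites tested at the 8 genes, 32 (91.4%) were called less often in the 9 Low pass or Fail than in the 14 Pass libraries, against 84.1% of the genome's sites (Fisher's exact test, adjusted over 16348 sites). None was called more often, at the adjusted or the unadjusted threshold, and 33 were less often at an unadjusted p below 0.05. The 3 that did not pass were at Meis1 (197 kb downstream), Ly6a (64.2 kb upstream) and Flt3 (2.22 kb upstream), each called in 5 or 6 of 14 Pass libraries. Fail libraries called few of these sites. The Erg site 72.4 kb upstream was called in 2 of 7, and the Procr sites 77.4, 58.7 and 54.8 kb upstream in 1 of 7 each. A site could reach the minimum of 5 calls through Pass libraries alone. Both sites tested at Hlf did so, since Low pass and Fail libraries called 0 sites there. With sites of any number of calls tested, 26 of the 32 still passed. The grade was given by eye from the signal tracks, so it is not independent of the calls.

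Fail libraries also called sites that no other library held. These 16 sites were narrow (103 to 172 bp), against 330 to 1503 bp for the 93 sites called in a Pass library. None of the 16 matched the CTCF matrix, against 72 of the 93 (77.4%; genome 74.7%). All 16 lay at least 50% in repeat-masked sequence, with a median of 100%, against a median of 21.8% and 7 of 93 sites at least 50% masked. Mecom and Cd34 held 4 each, Ly6a 4, Meis1 3 and Erg 1. Over all peaks of the genome, the median width in the CTCF Fail lists was 134 to 155 bp, so narrow peaks were not particular to these genes. The genome's share of sites held by Fail libraries alone was not counted, nor were their motifs and repeats, so these counts describe the 16 sites only.

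TAL1 sites were fewer than CTCF sites. The 20 sites fell at Flt3 (7), Meis1 (5), Cd34 (2), Erg (2) and Mecom, Hlf, Ly6a and Procr (1 each). Introns of coding transcripts held 13, untranslated regions 1, and 6 lay outside. Fail libraries called 0 of them, Low pass libraries 0 to 2, and Pass libraries 1 to 16 (median 4). All 5 sites that could be tested were called less often in the 9 Low pass or Fail than in the 10 Pass libraries, where 92% of the genome's tested TAL1 sites were. The count was 4 without the library labelled with a CTCF antibody, 3 with sites of any number of calls tested, 2 without the Low pass libraries and 1 with a −log10 p of at least 10. Each of the 5 met the minimum of 5 calls through Pass libraries alone, and 5 of 10 against 0 of 9 was enough to pass. The grade was given by eye from the signal tracks, so here too it is not independent of the calls.

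Flt3 carried the TAL1 site called most often, at chr5:147441572-147442669 in an intron of the neighbouring gene Pan3, 41.6 kb upstream of the Flt3 start. A peak was present in 2 of the 9 Low pass or Fail libraries and in 10 of 10 Pass libraries (Fisher's exact test, adjusted p = 0.003). Its percentiles were 17.0 and 3.71 in the Low pass libraries, against 40.5 to 83.1 (median 58.0) in Pass libraries; these are ranks within lists of different lengths, in the libraries that called the site. A second site in Pan3, at chr5:147444541-147445919 and 44.7 kb upstream, was called in 1 of 9 and 8 of 10 (Fisher's exact test, adjusted p = 0.0108).

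In Meis1, the intronic site at chr11:18962921-18963820, 55.6 kb downstream of the start, had a peak in 0 of the 9 Low pass or Fail libraries and 6 of 10 Pass libraries (Fisher's exact test, adjusted p = 0.0154; percentiles 5.48 to 56.5). The intronic Erg site at chr16:95438931-95439768, 19.9 kb downstream of the nearest coding start, and the site 53.4 kb upstream of Mecom at chr3:30600922-30601874 were called in 0 of 9 and 5 of 10 each (Fisher's exact test, adjusted p = 0.0353). The Erg site reached 5 calls through Pass replicate 10, the library with the CTCF antibody label, and without it had 4 calls and was not tested. Starts of the neighbouring genes Actrt3 and Mynn lay within 1 kb of the Mecom site. The Mecom site was 1 of 4 TAL1 sites that overlapped a CTCF site, which is 20% of the 20, against 13.03% of the genome's TAL1 sites.

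The other TAL1 sites were called in 1 to 4 of 10 Pass libraries, and 6 in a single library. Nearest to their starts were Meis1 chr11:18969726-18970501 (48.9 kb downstream, 4 of 10), Flt3 chr5:147388180-147389075 (11.9 kb downstream, in an intron, 2 of 10), Procr chr2:155742838-155743618 (7.89 kb upstream, 2 of 10), Ly6a chr15:74933704-74934473 (63.9 kb downstream, 3 of 10), Cd34 chr1:194976055-194976789 (37.6 kb downstream, 1 of 10) and Hlf chr11:90248827-90249419 (142 kb downstream, 1 of 10). The Hlf site lay within 1 kb of a start of another gene, Mmd. The second Cd34 site, at chr1:195004529-195005464, had the higher median percentile (20.8). CAGNTG occurred in 17 of the 20 sites, AGATAA in 12 and both in 11. Of all TAL1 sites, 83.1% held CAGNTG and 61.8% AGATAA, on either strand.

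**Figure D5:**
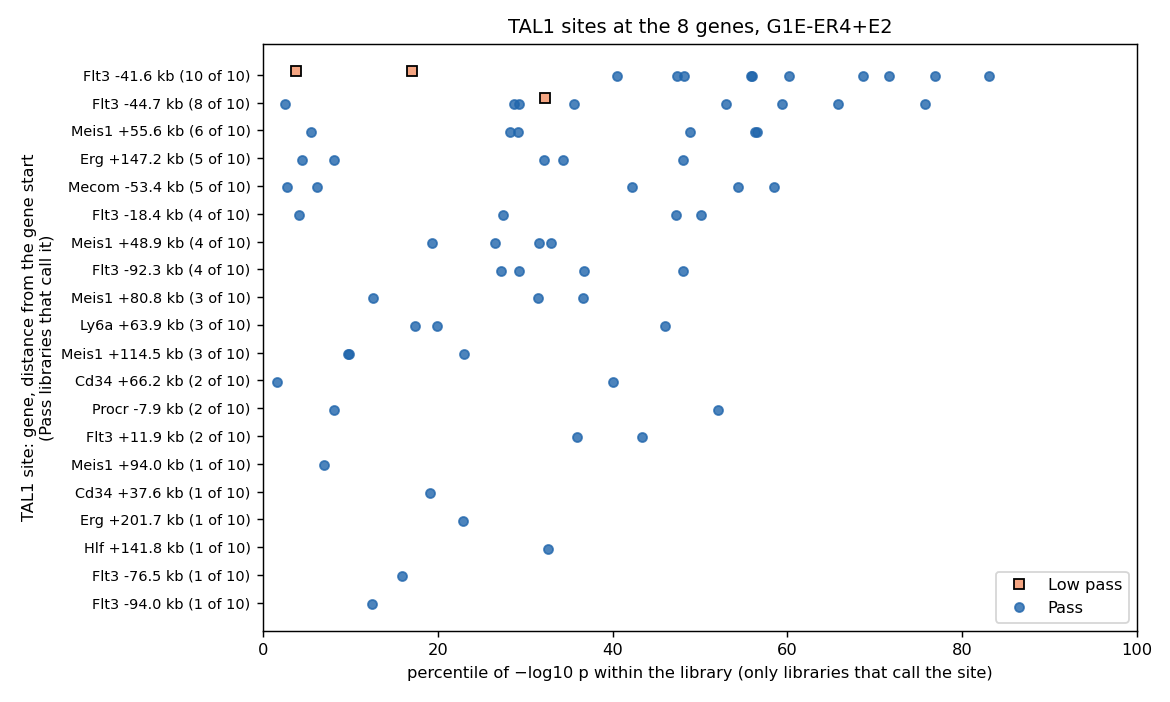
Percentile of −log10 p within the library (horizontal) for each TAL1 site at the 8 genes (rows, by gene and distance from its start in kb, with the number of Pass libraries calling it), in the G1E-ER4+E2 libraries that called it. Squares are Low pass and circles Pass libraries. The Flt3 site 41.6 kb upstream is called in all 10 Pass libraries, 5 sites reach 5 of 10, and only Flt3 sites are called in Low pass libraries.

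A list of 25 further stem and progenitor cell genes was scored in the same way. At least 1 CTCF site called in 7 or more of 14 Pass libraries lay within 100 kb of all 8 genes (100%), of 17 of the 25 (68%), and of 77.1% of 21938 coding genes. A TAL1 site called in at least 5 of 10 Pass libraries lay near 4 of the 8 (Flt3, Meis1, Erg and Mecom; 50%), 15 of the 25 (60%) and 43.5% of coding genes. Runx1, a master regulator of blood stem cells, had 5 such TAL1 sites, against 6 at Esam, the most of the 25, and 4 each at Gata2 and Lmo2, while Cd34, Hlf, Ly6a and Procr had 0. A CTCF site of both LSK libraries that no mature library called lay near 3 of the 8 (Mecom, Hlf and Ly6a; 37.5%), 5 of the 25 (Esam, Hmga2, Kit, Msi2 and Tek; 20%) and 17.5% of coding genes. Windows grew with gene length, from 203 kb at Ly6a to 797 kb at Mecom among the 8, and none of these shares was adjusted for it.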

How the data were processed

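The deposited files are peak lists of CTCF and TAL1 ChIP-seq. The authors mapped reads to mm10 with Bowtie (version 1.0.0 in the submitters' processing notes, which also list bcl2fastq 1.8.4), removed mitochondrial and unplaced chromosomes, and called peaks with MACS in each library separately, mostly against a pooled, non-matched input for the cell line. How reads with several matches were treated is not given in the sources used here. The deposited lists give each peak a fold enrichment (a linear ratio over background) and a −log10 p; the false discovery rate column was not used. Samples were grouped by title, cell type and grade as labelled. Libraries of 1 grade served as replicates, although they differed in chromatin length and in preparation.

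Peaks of a factor overlapping by at least 1 bp, over all of its libraries, were merged into sites with Python 3.11.15, pandas 2.3.3 and numpy 2.4.6, and a site was called in a library that had a peak in it. Genes and coding starts came from GENCODE vM21, and sequence from the GRCm38/mm10 reference. Calls were compared by Fisher's exact test (scipy 1.17.1, two-sided) over all sites of the genome called in at least 5 of the libraries compared, with Benjamini-Hochberg adjustment and a threshold of 0.05; the tests were also run on simulated data. The CTCF matrix came from 1712 motif words of the 2000 strongest peaks of LSK replicate 1 outside the gene windows, and a match needed p of 0.0001 or less. Named sites were the nearest to each start, the strongest by median percentile, those in every Pass library, those that pass a test between primary and cell line libraries, LSK sites in no mature library and TAL1 sites in at least 5 of 10 Pass libraries. Alternatives were a −log10 p of at least 10, equal list lengths, other merging, a window of 50 kb, other minimums of calls, each LSK, ERY and iMK library left out in turn, and sets of libraries left out or added. The genes, lists and tests were chosen with earlier results of these data known.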

Additional observations from a re-analysis of the deposited data

Results flagged for a closer look

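A count of sites at a gene was marked where the highest or lowest library of a group of 4 to 10 lay far from the rest by Dixon's ratio. For continuous values chance marks about 1 in 20 groups, and 19 groups were examined. The counts here are small whole numbers, so that rate need not hold. A group in which all libraries but 1 call 0 sites is marked whatever the count, as for Flt3, Procr and Hlf below. At CTCF, Fail replicate 2 of G1E-ER4+E2 cells called 3 sites at Meis1, Fail replicate 7 called 1 at Flt3, and Fail replicate 5 called 3 at Procr. The 3 Procr sites were those 77.4, 58.7 and 54.8 kb upstream, which all Pass libraries of the line also called. At TAL1, Pass replicate 7 called 1 site at Hlf and Pass replicate 2 called 2 sites at Erg. These TAL1 libraries had lists of 9763 and 7868 peaks, among the longest of the 10 Pass libraries, and the part of list length was not tested.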

How the results depend on the processing

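No site reversed its direction under any alternative. No paired analysis was possible because the labels carry no replicate numbers. Requiring a −log10 p of at least 10 gave 6 LSK sites kept in all mature libraries (12 as reported), 3 kept in none (5 as reported), and 15 CTCF and 1 TAL1 sites called less often in Low pass or Fail libraries (32 and 5 as reported). The strongest 6629 peaks of each library gave 5 kept and 1 in none, and a window of 50 kb gave 5 kept. Leaving out both ERY libraries gave 36 kept, and leaving out 1 LSK, ERY or iMK library gave 12 to 17 kept and 5 to 15 in none. Testing sites with any number of calls left 3 TAL1 sites, and leaving out the Low pass libraries, an alternative chosen after the data were seen, left 2. Of the 32 CTCF sites, 26 still passed under the first of these alternatives and 27 under the second. Adding CMP and GMP gave 15 sites called more often in primary cells (8 as reported), and the other alternatives gave 6 to 8. With the strongest 6629 peaks, the 7 that passed were all at Ly6a, and the Procr site 77.4 kb upstream was called less often in primary cells (Fisher's exact test, adjusted p = 0.0404). Median sites per library within 50 kb, and with a −log10 p of at least 10, were 0 and 0 for CTCF Fail (4 as reported), 18 and 15 for CTCF Pass of the line (29.5), 34 and 40 for LSK (52.5), 7.5 and 9 for ERY (16), and 29.5 and 33.5 for iMK (48). The causes were not tested. Unknown read depth limits each call, and a site with no peak is not shown to be unbound.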
